A study of Mus musculus with 16 samples.

Results

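Microtubules are built from dimers of alpha and beta tubulin, and the tubulins are encoded by small families of closely similar genes, the isotypes. Here 10 genes were followed in adult mouse retina and newborn mouse cortex: the beta tubulins Tubb2a, Tubb2b, Tubb3, Tubb5 and Tubb4a, the alpha tubulins Tuba1a and Tuba4a, and the microtubule-associated proteins Map1b, Map2 and Mapt (tau). The members are the probe sets to which the platform annotation gives a single gene symbol that is one of these 10. There were 16 such probe sets among 12422 tested, and they cover 9 of the 10 genes. Tubb3, Tubb2a, Tubb5, Tuba1a and Tuba4a had 2 each, Mapt had 3, and Tubb4a, Map2 and Map1b had 1 each. Tubb2b had none and is not analysed here.

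The first-site samples were aliquots of a pool of retina RNA from 350 adult C57/B6 mice and of a pool of cortex RNA from 19 mice on postnatal day 1. All samples were hybridised to 1-colour oligonucleotide arrays, and the site 2 labels give postnatal day 1 for cortex too. For cortex, the sample descriptions name C57/B6 but the design text names Swiss-Webster, so organ, age and possibly strain differ between the tissues together and cannot be told apart. The first site ran 5 arrays of each tissue, and a site that the labels call site 2 ran 3 of each, for which the descriptions give no pool details. The first-site arrays of a group are technical replicates of a pool. Those of site 2 were taken to be so from their titles, which use the same sample names. Every error and p-value below therefore measures the spread between arrays and not between mice. In such bulk RNA, fewer cells of a type and less RNA per cell cannot be told apart.

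In neurons, Tubb3 is the isotype taken as the mark of neuronal identity, and Tuba1a, Tubb2a and Tubb2b carry much of the tubulin of young growing neurites. Tubb5 is also made by dividing cells, while Tubb4a and Tuba4a are known as isotypes of more mature neurons and, for Tubb4a, of myelinating glia. Tau binds along axonal microtubules, MAP2 along those of dendrites and cell bodies, and MAP1B is prominent in growing axons. Retinal photoreceptors also use microtubules in the connecting cilium and for transport to the outer segment.

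At the first site, 11 of the 16 probe sets were lower in retina than in cortex, 2 were higher and 3 did not pass, but 1 of the 2 higher, a Tuba4a probe set, had no signal above controls with no added target on any array (limma moderated test, Benjamini-Hochberg adjusted p under 0.05 over all probe sets). Over all probe sets, 47.1% passed by the same rule, 25.2% lower in retina and 21.9% higher. The median retina minus cortex difference of the 16 was -1.16 on the log2 scale, beside -0.05 over all 12422 probe sets. At site 2, 8 were lower and 2 higher, beside 15.9% and 16.7% of all probe sets (32.5% in either direction), and the median difference was -0.63 (-0.02 over all). Of the 2 higher there, Map1b had 2 of its 3 cortex arrays at or under the controls with no added target. The 8 that were lower at both sites belong to 4 genes, Tubb3, Tubb2a, Tubb5 and Mapt, and 1 probe set, of Tuba4a, was higher at both. Over all probe sets, 14.1% were lower at both sites and 14.4% higher at both (28.6% in either direction). The retina arrays lay wholly below the cortex arrays for 11 members at the first site and 8 at site 2, beside 20.4% and 22.2% of all probe sets, and wholly above for 1 and 3, beside 17.4% and 22.0% (37.9% and 44.2% in either direction).

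**Figure D1:**
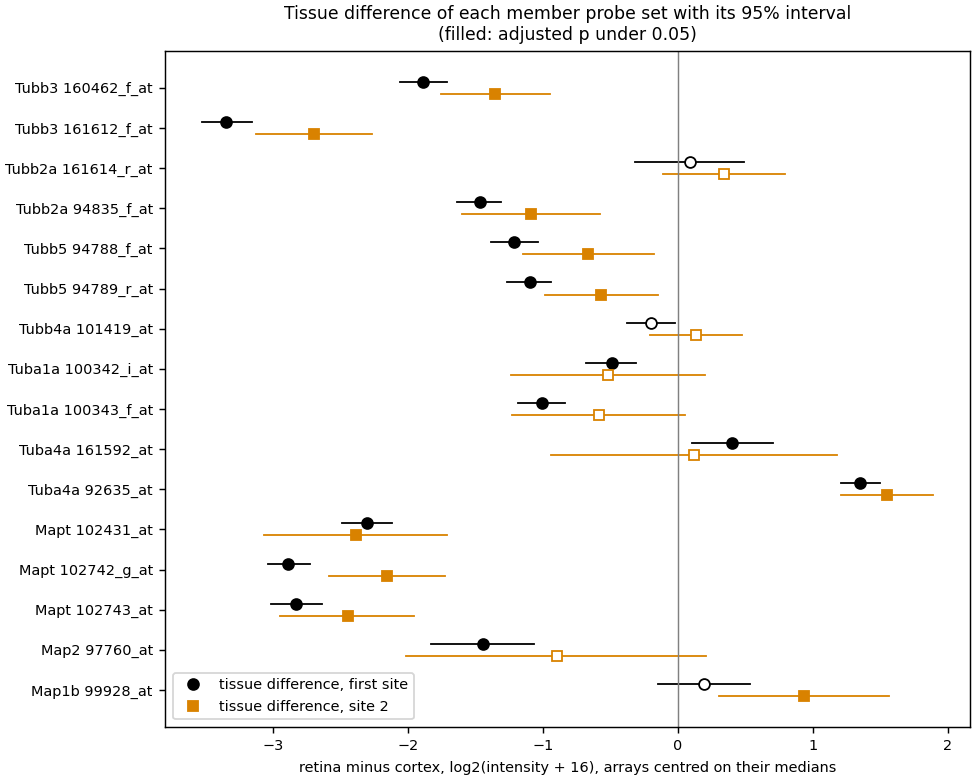
Retina minus cortex difference of each member probe set on the log2(intensity + 16) scale, with its 95% interval from the limma fit, at the first site (circles) and site 2 (squares). Filled symbols passed at an adjusted p under 0.05. Tubb3, Mapt, the brighter Tubb2a probe set and Tubb5 lie below 0 at both sites, the brighter Tuba4a probe set lies above 0 at both, and Tubb4a lies near 0.

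The sequences upstream of 5 tubulin genes are given so that 4 genes lower in retina at the first site (Tubb3, Tubb2a, Tubb5 and Tuba1a) can be read beside Tubb4a, which did not pass at either site. They are the 250 bases before the annotated start, read 5′ to 3′ on the gene's strand from RefSeq (GRCm38.p6), and capitals mark motifs found by letter on both strands, where overlapping matches merge. They are TATAA, from the TATA box, then CCAAT, from the CCAAT box, then GGGCGG, the GC box, then TGACGT, a half-site of the cyclic AMP response element, and CACGTG, an E-box. The Tubb3 window is at chr8:123411303-123411552 on the plus strand, and the others, on the minus strand, are Tubb2a at chr13:34078009-34078258, Tubb5 at chr17:35838302-35838551, Tubb4a at chr17:57087601-57087850 and Tuba1a at chr15:98953502-98953751.
Tubb3: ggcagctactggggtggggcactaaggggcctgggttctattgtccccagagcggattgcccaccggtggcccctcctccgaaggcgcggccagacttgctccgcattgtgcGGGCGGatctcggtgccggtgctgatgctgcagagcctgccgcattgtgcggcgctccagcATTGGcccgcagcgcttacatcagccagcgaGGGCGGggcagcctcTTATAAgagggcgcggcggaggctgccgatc
Tubb2a: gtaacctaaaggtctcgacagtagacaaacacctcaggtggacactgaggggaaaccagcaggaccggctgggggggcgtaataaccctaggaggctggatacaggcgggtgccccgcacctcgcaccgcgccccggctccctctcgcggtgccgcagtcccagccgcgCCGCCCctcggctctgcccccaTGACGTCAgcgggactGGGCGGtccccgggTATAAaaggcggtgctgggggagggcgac
Tubb5: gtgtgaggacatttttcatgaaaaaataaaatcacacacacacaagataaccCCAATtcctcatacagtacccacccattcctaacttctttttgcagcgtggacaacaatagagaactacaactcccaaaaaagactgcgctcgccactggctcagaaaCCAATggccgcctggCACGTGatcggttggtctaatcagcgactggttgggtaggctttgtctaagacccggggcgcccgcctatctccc
Tubb4a: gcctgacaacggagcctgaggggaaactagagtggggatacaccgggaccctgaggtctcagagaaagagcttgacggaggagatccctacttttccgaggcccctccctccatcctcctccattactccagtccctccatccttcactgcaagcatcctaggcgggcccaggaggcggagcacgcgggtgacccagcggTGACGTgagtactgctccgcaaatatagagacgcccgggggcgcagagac
Tuba1a: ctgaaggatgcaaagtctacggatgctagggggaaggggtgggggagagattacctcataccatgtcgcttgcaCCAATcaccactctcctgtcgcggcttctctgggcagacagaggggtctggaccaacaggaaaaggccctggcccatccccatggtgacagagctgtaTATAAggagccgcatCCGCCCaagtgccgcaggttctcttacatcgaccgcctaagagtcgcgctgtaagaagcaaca

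TATAA or its reverse complement was found before Tubb3, Tubb2a and Tuba1a and not in these windows of Tubb5 and Tubb4a, and 22.8% of all 32851 windows of this length in the table hold it. In Tubb3 the letters lie 30 bases before the start and in Tubb2a 29, and in Tuba1a 78. GGGCGG was found before Tubb3 (2 matches), Tubb2a (2) and Tuba1a (1), beside 32.7% of all windows. CCAAT was found before Tubb5 (2 matches), Tubb3 (1) and Tuba1a (1), beside 33.8% of all windows. TGACGT was found before Tubb2a, where both strands match in overlapping letters, and before Tubb4a, beside 6.47% of all windows, and CACGTG only before Tubb5 among the 5 printed, beside 6.02%. The RefSeq table had a window for 8 of the 10 genes. It had none for Mapt or Tubb2b, and its entries for Tuba4a and Map2 do not start at the end of the annotated gene and are not shown; that of Map1b, whose probe set was dim, is not shown either. These matches describe letters and are not tests of binding.

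Tubb3, the neuronal beta tubulin, had the largest difference of the tubulins. Intensities below are relative to the array's own median, which was set to 100. On probe set 161612_f_at the first-site retina arrays gave 488, 554, 498, 527 and 391, and the cortex arrays gave 5228, 5662, 4920, 5044 and 4850. The lowest cortex array was far above the highest retina array. The difference was -3.35 ± 0.09 on the log2(intensity + 16) scale (SE, limma adjusted p = 2.0e-14), a 10.2-fold lower level in retina. The site 2 retina arrays gave 679, 788 and 670 and the cortex arrays 4135, 7371 and 3663, again with no overlap. The difference there was -2.70 ± 0.19 (limma adjusted p = 3.6e-06), and its test against the first site gave 0.64 ± 0.19 (interaction adjusted p = 0.069). That test passed under a pseudocount of 50 (0.63, adjusted p = 0.039), among probe sets above the median signal (0.64, adjusted p = 0.046) and without site 2 cortex replicate 2 (0.85, adjusted p = 0.0016).

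The other Tubb3 probe set, 160462_f_at, went the same way by a smaller amount. Its retina means were 2299 ± 94 at the first site (SD, n = 5) and 2604 ± 135 at site 2 (SD, n = 3), and its cortex means were 8648 ± 1127 and 7134 ± 2582. The differences were -1.89 ± 0.08 and -1.36 ± 0.18 (SE, limma adjusted p = 1.3e-11 and 0.00025). In the order of the 4 groups, both Tubb3 probe sets had first-site retina lowest, then site 2 retina, with both cortex groups above them and overlapping each other. By the manufacturer's naming, an f in a probe set name marks probes that may match several members of a sequence family. Of the member probe sets, 5 carry it, those of Tubb3 and 1 each of Tubb2a, Tubb5 and Tuba1a, so signal from sister isotypes can enter their values, and how much was not tested.

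Tubb2a, a major beta tubulin of neurons, was lower in retina on probe set 94835_f_at. The first-site retina arrays gave 3472, 3531, 3627, 3869 and 3474, and the cortex arrays 10715, 10317, 8755, 10351 and 10370. The site 2 retina arrays gave 3539, 3969 and 4164 and the cortex arrays 6993, 14312 and 6087. The tissues did not overlap at either site. The differences were -1.47 ± 0.08 and -1.09 ± 0.23 (SE, limma adjusted p = 9.6e-11 and 0.0043). The other probe set, 161614_r_at, lay near the array median of 100, with group means between 89.0 and 143. It was above the controls with no added target on every array. Its arrays overlapped at the first site and lay higher in retina at site 2, but it did not pass at either (limma, 0.09, 95% interval -0.32 to 0.49, and 0.34, -0.11 to 0.79).

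Tubb5, the beta tubulin that dividing cells also make, was lower in retina on both of its probe sets. On 94788_f_at the first-site mean of the 5 retina arrays was 4057 ± 286 (SD) and that of the 5 cortex arrays 9560 ± 1035, a difference of -1.22 ± 0.08 (SE, limma adjusted p = 2.4e-09). On 94789_r_at they were 3905 ± 125 and 8483 ± 874, a difference of -1.10 ± 0.08 (adjusted p = 4.1e-09). The tissues did not overlap at site 2 either, with retina arrays between 4360 and 4979 and cortex arrays between 5365 and 12265 on 94788_f_at. The site 2 differences were smaller, -0.67 ± 0.22 and -0.57 ± 0.19 (limma adjusted p = 0.04 for each), but the difference between the sites did not pass (interaction adjusted p = 0.16 and 0.099). These site 2 calls were lost under a pseudocount of 1 (adjusted p = 0.13 for each), with scaling before the pseudocount (0.17 for each), without the intensity trend (0.091 and 0.084), without centring (0.66 and 0.75) and without any 1 of retina replicates 1, 2 and 3 or cortex replicate 1 (adjusted p between 0.058 and 0.14). Without cortex replicate 2 they held, at -0.41 and -0.42 (limma adjusted p = 0.018 and 0.031), and the difference between the sites then passed (0.81 and 0.68, interaction adjusted p = 0.0018 and 0.0094). With all arrays kept, the difference between the sites also passed under a pseudocount of 50 (0.56 and 0.54, interaction adjusted p = 0.042 and 0.035).

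Tubb4a, the beta tubulin of mature neurons and myelinating glia, did not pass at either site. The first-site retina arrays gave 2455, 2275, 1960, 2224 and 1943, and the cortex arrays gave 2727, 2740, 2439, 2314 and 2324. The ranges overlapped. At site 2 the retina arrays gave 2623, 2608 and 3045 and the cortex arrays 2668, 2588 and 2439, which also overlapped. The differences were -0.20 (95% interval -0.38 to -0.02, limma adjusted p = 0.065) and 0.13 (-0.21 to 0.47, adjusted p = 0.63). The first-site value passed without retina replicate 1 (-0.26, limma adjusted p = 0.018), under a pseudocount of 1 (-0.21, adjusted p = 0.049) and among probe sets above the median signal (-0.20, adjusted p = 0.041).

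Among the alpha tubulins, Tuba1a and Tuba4a went in opposite directions at the first site. Tuba1a, the main alpha tubulin of developing neurons, gave 4859, 5674, 5304, 5591 and 5329 on the retina arrays with probe set 100343_f_at, and 11525, 11867, 9144, 10896 and 11207 on the cortex arrays. The difference was -1.01 ± 0.08 (SE, limma adjusted p = 2.7e-08). On 100342_i_at it was -0.49 ± 0.09 (adjusted p = 0.00015), with means of 7525 ± 722 over 5 retina arrays and 10679 ± 1002 over 5 cortex arrays (SD), and this call was lost without centring of the arrays (-0.41, adjusted p = 0.059). At site 2 neither probe set passed. The retina arrays gave 4954, 6048 and 7361 and the cortex arrays 7476, 17455 and 6162 on 100343_f_at, so that 1 cortex array lay among the retina arrays. The site 2 differences were -0.59 (95% interval -1.23 to 0.05, limma adjusted p = 0.16) and -0.52 (-1.24 to 0.20, adjusted p = 0.28). Without cortex replicate 2 of that site they were -0.23 and -0.08 (adjusted p = 0.26 and 0.68), and under quantile normalization both passed (-0.61 and -0.48, adjusted p = 0.0067 and 0.02). Probe set 100343_f_at also passed under a pseudocount of 50 (-0.56, limma adjusted p = 0.037) and with all 16 arrays in one fit (-0.59, adjusted p = 0.029).

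Tuba4a, an alpha tubulin of mature tissues, was the 1 tubulin gene among the members that was higher in retina. With probe set 92635_at the first-site retina arrays gave 586, 622, 632, 606 and 566, and the cortex arrays gave 229, 215, 227, 246 and 223. At site 2 the retina arrays gave 551, 698 and 609 and the cortex arrays 196, 199 and 213. Every retina array was above every cortex array of its site. The differences were 1.35 ± 0.07 and 1.55 ± 0.15 (SE, limma adjusted p = 9.3e-11 and 3.0e-05), and they were not told apart between sites (limma interaction 0.20, 95% interval -0.09 to 0.49, adjusted p = 0.52). Its other probe set, 161592_at, was at or under the level of the control probes with no added target on all 16 arrays, so no level is given for it, although its first-site values passed (limma adjusted p = 0.027). That call was lost without any 1 of retina replicates 3, 4 and 5 or cortex replicates 1 and 4 (adjusted p between 0.052 and 0.066).

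**Figure D2:**
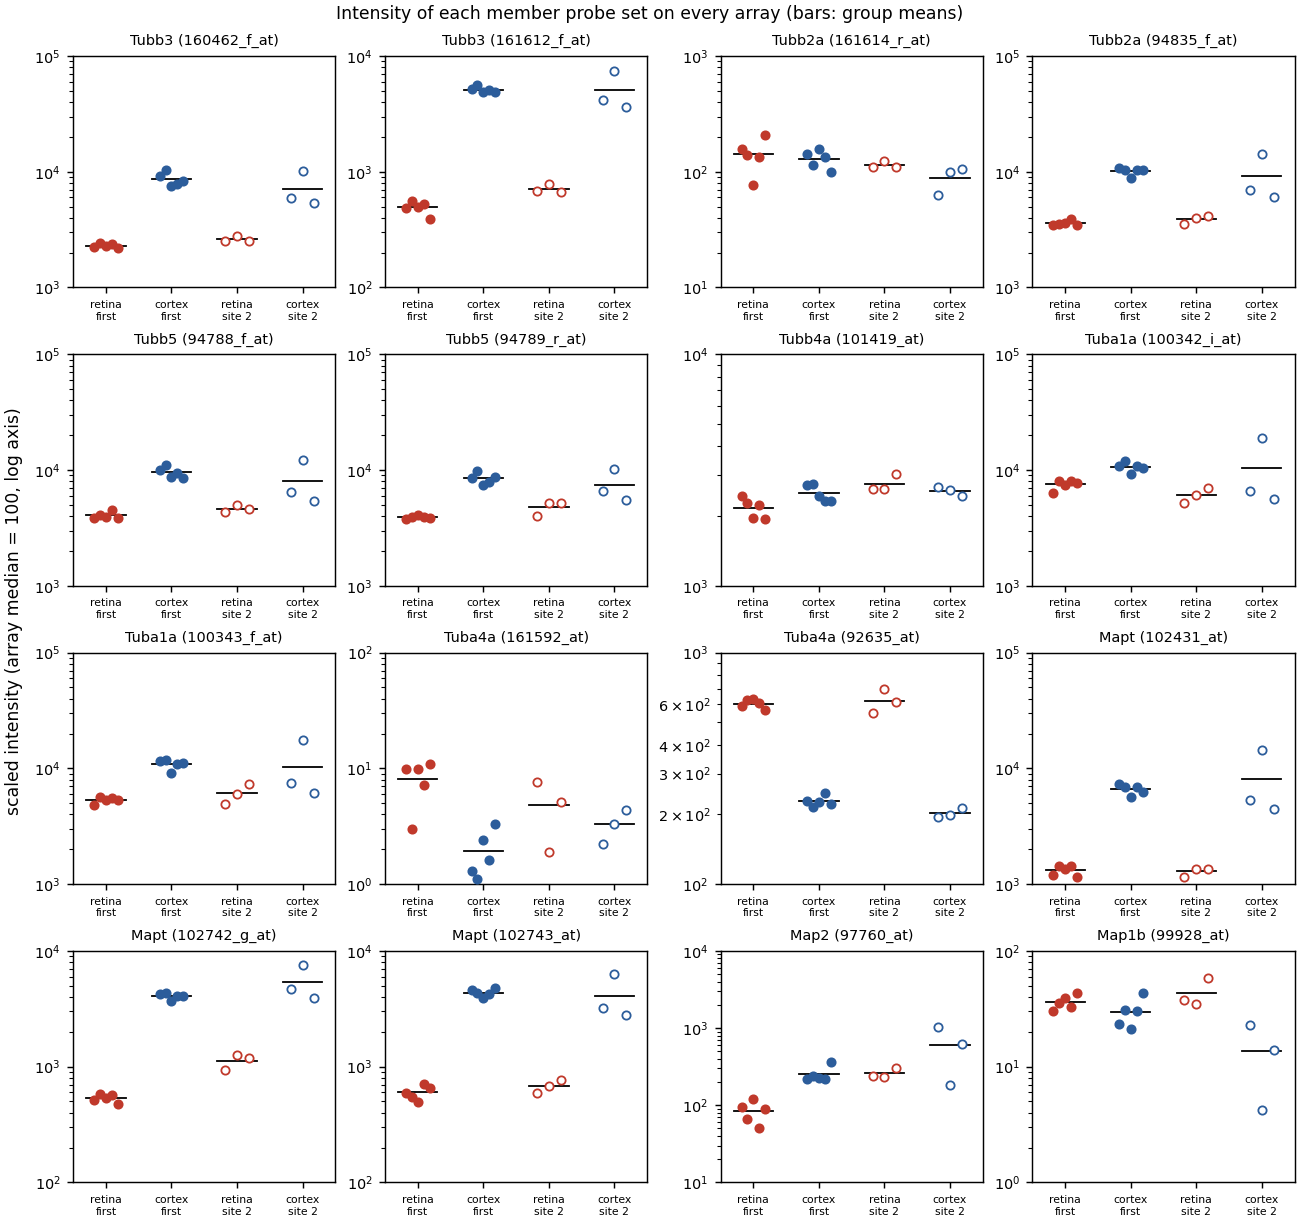
Scaled intensity (array median set to 100, log axis) of the 16 member probe sets on each array, retina in red and cortex in blue, first site filled and site 2 open, with bars at the group means. The brighter Tuba4a probe set is higher in retina at both sites and the Tubb3 and Mapt probe sets are higher in cortex, and 1 site 2 cortex array, replicate 2, lies above the other 2 for most bright probe sets and below them for Map2 and Map1b.

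A ratio of 2 probe sets on the same array does not depend on how arrays are scaled. These ratios were chosen after the values were seen and are given without a test. The log2 ratio of Tuba4a (92635_at) to Tuba1a (100343_f_at) lay between -3.23 and -3.05 on the first-site retina arrays and between -5.78 and -5.33 on the cortex arrays, and the group means differed by 2.43. At site 2 it lay between -3.59 and -3.12 and between -6.46 and -4.86, a difference of 2.23. The log2 ratio of Tubb3 (161612_f_at) to Tubb4a lay between -2.33 and -1.98 in first-site retina and between 0.94 and 1.12 in cortex, and at site 2 between -2.19 and -1.73 and between 0.59 and 1.51. The cortex values of -6.46 and 1.51 were both from site 2 replicate 2. Replicates 1 and 3 gave -5.26 and -4.86 for Tuba4a over Tuba1a, and 0.63 and 0.59 for Tubb3 over Tubb4a. The 100343_f_at probe set of Tuba1a was the brightest tested on first-site cortex replicates 1 and 5. On replicate 4 the other Tuba1a probe set, 100342_i_at, was the brightest. The Tuba1a ratios in cortex may therefore be limited by the top of the range, which was not tested. The ratios say nothing of the absolute amounts of each isotype, since different probes are compared. For Tubb3 and Tuba1a, the probe set used was the one with the larger first-site difference (-3.35 against -1.89, and -1.01 against -0.49). The other Tubb3 probe set, 160462_f_at, had first-site scaled means of 2299 in retina and 8648 in cortex. Those of Tubb4a were 2171 and 2509. With 160462_f_at, Tubb3 and Tubb4a thus read close together in first-site retina, and the ratio differed less between tissues.

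**Figure D3:**
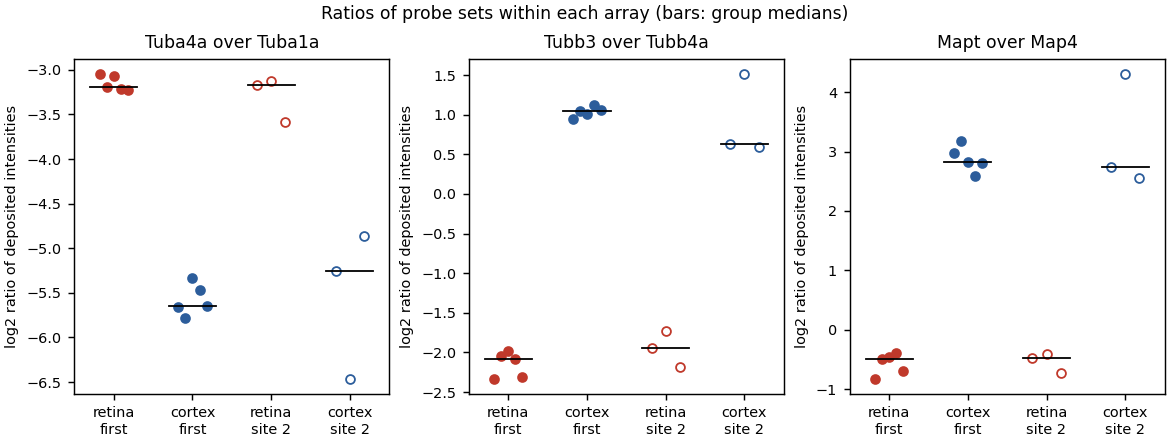
Log2 ratio of deposited intensities of 2 probe sets on the same array, for Tuba4a over Tuba1a, Tubb3 over Tubb4a and Mapt over Map4, retina in red and cortex in blue, first site filled and site 2 open, with bars at the group medians. Retina and cortex arrays do not overlap in any of the 3 panels at either site.

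Mapt, which encodes the axonal protein tau, was lower in retina on all 3 of its probe sets at both sites. On 102742_g_at the first-site retina arrays gave 519, 584, 538, 570 and 477 and the cortex arrays 4276, 4345, 3695, 4077 and 4069. At site 2 the retina arrays gave 928, 1249 and 1199 and the cortex arrays 4682, 7493 and 3887. The tissues were well apart at both sites, and the site 2 retina arrays lay above all first-site retina arrays. The differences were -2.89 ± 0.07 (7.40-fold lower) and -2.16 ± 0.19 (4.46-fold lower; SE, limma adjusted p = 1.3e-14 and 1.7e-05).

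The other tau probe sets gave -2.83 ± 0.09 and -2.45 ± 0.22 (102743_at) and -2.31 ± 0.09 and -2.39 ± 0.31 (102431_at), with limma adjusted p of at most 0.00019. The first-site means on 102431_at were 1317 ± 130 over the retina arrays and 6619 ± 632 over the cortex arrays (SD, 5 arrays each), and on 102743_at 601 ± 84.6 and 4367 ± 343. For 102742_g_at the difference itself differed between the sites, by 0.73 ± 0.18 (interaction adjusted p = 0.027), and it was the 1 member of 16 to pass that test, beside 3.36% of all probe sets (2.07% with retina relatively higher at site 2 and 1.30% relatively lower). This call did not hold under a pseudocount of 1 (adjusted p = 0.078) and was lost without first-site cortex replicate 1, site 2 retina replicate 2 or 3, or site 2 cortex replicate 3 (adjusted p between 0.052 and 0.1). For the other tau probe sets the interaction was 0.38 ± 0.22 and -0.09 ± 0.28 (adjusted p = 0.41 and 0.95).

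Map2, the dendritic microtubule-associated protein, was lower in retina at the first site. The retina arrays gave 94.3, 66.9, 119, 51.0 and 90.0, and the cortex arrays gave 220, 237, 227, 222 and 362, with no overlap. The difference was -1.45 ± 0.18 (SE, limma adjusted p = 3.7e-06). At site 2 the retina arrays gave 242, 235 and 303 and the cortex arrays 1022, 184 and 624. Cortex replicate 2 lay below all 3 retina arrays and the other cortex arrays above them. The difference was -0.90 (95% interval -2.02 to 0.21, limma adjusted p = 0.22), and without that array it was -1.63 ± 0.18 (adjusted p = 3.1e-05). The level read higher at site 2 than at the first site in both tissues, except on that array. The tissue difference was not told apart between the sites (interaction 0.55, 95% interval -0.51 to 1.61, limma adjusted p = 0.67).

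Map1b, which supports axon growth, was dim on its 1 probe set. The first-site means were 36.3 ± 5.23 over the retina arrays and 29.7 ± 8.56 over the cortex arrays (SD, 5 arrays each). In cortex, 3 of 5 first-site arrays and 2 of 3 site 2 arrays were at or under the level of controls with no added target, whereas no retina array was. The first-site difference did not pass (0.19, 95% interval -0.15 to 0.53). At site 2 it passed (0.93 ± 0.28, limma adjusted p = 0.028), with retina arrays at 37.8, 34.6 and 58.0 and cortex arrays at 23.0, 4.2 and 13.9. That call was lost under a pseudocount of 50 (0.55, adjusted p = 0.13) and without any 1 of retina replicates 1, 2 and 3 or cortex replicate 3 (adjusted p between 0.065 and 0.17).

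The bright tubulin probe sets were among the highest on the arrays. In cortex, Tuba1a reached between 86.8% and 100% of the highest intensity on the same array, the 94835_f_at probe set of Tubb2a between 73.6% and 97.4%, and Tubb5 between 52.5% and 89.6%. In retina the same probe sets reached between 45.6% and 72.7%, between 29.8% and 45.1% and between 32.9% and 57.2%. Whether readings this close to the top of the range understate the differences was not tested. The array medians ran from 45.7 to 216. Site 2 cortex replicate 2 was the dimmest, and its ratio of 3′ to 5′ Gapdh control signal was 1.66, beside 0.76 to 0.95 on the other 15 arrays. The corresponding ratio of the beta actin control was between 1.5 and 1.79 on the retina arrays of both sites and between 1.13 and 1.26 on the first-site cortex arrays. On the site 2 cortex arrays it was 1.05 and 1.04 for replicates 1 and 3 and 1.85 for replicate 2. Except on that array, this sign of RNA or labelling quality moved with tissue, and its part in the results was not tested. Without centring of the arrays, 4 members stayed lower in retina at site 2 (the 3 of Mapt and the 161612_f_at probe set of Tubb3) and none was higher.

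Rod and cortical projection neuron markers were high in the tissue the labels name. All 7 rod genes on the array rose in retina relative to cortex at each site, and their summed scaled intensity was between 34547 and 47526 on retina arrays and between 83.0 and 126 on cortex arrays, where Pde6b, Rom1, Prph2 and Rcvrn were at or under the no-target level on every array. The 3 measured cortical projection neuron genes were lower in retina at each site, with sums between 138 and 287 in retina and between 3175 and 6823 in cortex. All 6 immature neuron genes, which include Dcx and Stmn1 of the lists below, were lower in retina at each site, with sums between 3368 and 4218 in retina and between 21690 and 46504 in cortex, and 5 of 6 were lower at site 2 with each gene read as the mean of its probe sets. The 6 measured general synaptic genes moved otherwise, with 4 higher and 1 lower in retina at the first site and 3 and 1 at site 2. All 5 measured ganglion cell genes were higher in retina at the first site and 4 at site 2, with sums between 3468 and 5418 in retina and between 868 and 1287 in cortex. They were Nefh, Nefl, Nefm, Thy1 and Sncg, and the listed Pou4f1 and Pou4f2 were not measured. Genes of some other cells moved with tissue too, and those of others were mixed. Of 6 progenitor and radial glia genes, 4 were lower in retina and 1, Pax6, higher at each site. Of 5 endothelial genes, 2 were higher and 2 lower at each site. Of 6 microglia genes, 1 was higher and 3 lower at the first site, and 1 and 0 at site 2. Of the Mueller glia genes 5 of 5 were higher in retina at the first site and 4 at site 2, with sums between 10328 and 11925 in retina and between 1310 and 1920 in cortex. Of the lens genes 3 of 4 were higher at each site (988 to 1744 against 74.7 to 138), with Mip at or under the no-target level on every retina array. The pigment epithelium genes Rgr and Rdh5 were higher at each site, while Ttr was lower (list sums 700.3 to 1039 against 413 to 760.4). Of the erythroid genes 3 of 3 were lower (732 to 860 against 3241 to 4924), as were 4 of 5 meningeal fibroblast and mural genes (507 to 1174 against 1330 to 2119). The part of these cell types in the tubulin and tau differences was not tested. The summed level of 5 oligodendrocyte genes lay between 343 and 478 on retina arrays and between 332 and 532 on cortex arrays, and Mog and Cnp were at or under the no-target level on every array.

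Other genes of the microtubule system were taken from 8 lists, each gene read from its brightest probe set. The counts stand beside 25.2% of all probe sets lower in retina and 21.9% higher at the first site. At site 2 these shares were 15.9% and 16.7%. The tubulin family list, which holds the members, had 12 of 20 genes measured, with 6 lower and 2 higher in retina at the first site and 4 and 1 at site 2. Outside the members, Tubb6, a beta tubulin of many non-neuronal cells, was lower in retina by -0.81 ± 0.09 and -1.44 ± 0.25 on the log2 scale (SE, limma adjusted p = 9.9e-07 and 0.0012). The gamma tubulin genes Tubg1 and Tubg2, needed to nucleate microtubules, had first-site differences of 0.12 and 0.11 and did not pass at either site. The probe sets read for Tubb6 and Tubg2 also carry the f in their names. Signal from sister isotypes can therefore enter the Tubb6 and Tubg2 values too, and how much was not tested.

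Proteins that bind the microtubule wall went both ways. Of 11 measured genes, 5 were lower and 3 higher in retina at the first site, and 4 and 4 at site 2. This list holds the members Map1b, Map2 and Mapt. Mapt is among the lower at both sites, Map2 among the lower at the first site, and the dim Map1b among the higher at site 2. Dcx, the microtubule stabiliser of migrating neurons, was lower by -5.50 ± 0.08 and -5.29 ± 0.19 (SE), and Prc1, which bundles spindle microtubules in dividing cells, by -2.18 ± 0.23 and -1.73 ± 0.18. Map7, a cofactor of kinesin-1, was higher by 2.58 ± 0.09 and 3.18 ± 0.16, and Map4, the broadly expressed relative of tau and MAP2, by 1.11 ± 0.10 and 1.31 ± 0.17. For these 4 genes limma gave an adjusted p of 0.00022 or less. Within arrays, the log2 ratio of Mapt (102431_at) to Map4 lay between -0.82 and -0.39 in retina and between 2.56 and 4.30 in cortex over both sites. The value of 4.30 was from site 2 cortex replicate 2, and replicates 1 and 3 gave 2.74 and 2.56.

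The stathmins, which hold tubulin dimers out of the polymer, were lower in retina at both sites for 4 of 4 measured genes, each read from its brightest probe set. Stmn4 differed by -3.10 ± 0.09 and -2.67 ± 0.16 (SE), Stmn2 by -2.86 ± 0.09 and -2.25 ± 0.14, Stmn1 by -1.83 ± 0.08 and -1.44 ± 0.22, and Stmn3 by -1.29 ± 0.08 and -0.99 ± 0.14 (limma adjusted p at most 0.00064). The median of the 4 was -2.35 at the first site, and site 2 gave -1.85. With each gene read as the mean of its probe sets, 4 were lower at the first site (median -1.52) and 3 at site 2 (median -1.35). For Stmn2 the difference was smaller at site 2 by 0.60 ± 0.15 (interaction adjusted p = 0.026). Among proteins that track growing plus ends, 8 of 12 measured genes were lower and 2 higher at the first site, and 5 and 2 at site 2. Mapre1, the end-binding protein EB1, was lower by -1.56 ± 0.08 and -2.21 ± 0.38, while its neuronal relative Mapre3 (EB3) was higher by 0.81 ± 0.12 and 1.26 ± 0.20 (adjusted p at most 0.0012). Nav1 and Nav2, the neuron navigators, differed by -1.78 ± 0.14 and -1.48 ± 0.19 and by -1.61 ± 0.06 and -1.66 ± 0.41, and Slain1, a microtubule growth factor, by -1.87 ± 0.12 and -1.65 ± 0.15 (adjusted p at most 0.01). Clip2, a plus-end linker, was lower by -1.38 ± 0.14 at the first site and gave 0.16 ± 0.24 at site 2 (interaction adjusted p = 0.0017).

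Of 17 measured chaperonin and cofactor genes that fold tubulin, 6 were lower and 5 higher in retina at the first site, and 3 and 1 at site 2. Over all probe sets, 25.2% were lower and 21.9% higher at the first site, and 15.9% and 16.7% at site 2. The list medians were -0.21 and 0.06, beside -0.05 and -0.02 over all probe sets. The tubulin cofactors Tbca and Tbcb were lower by -1.07 ± 0.09 and -0.72 ± 0.20 and by -0.95 ± 0.10 and -0.80 ± 0.19 (SE), the chaperonin subunit gene Cct6a by -0.77 ± 0.09 and -0.88 ± 0.21, and Arl2, a small GTPase of the folding pathway, was higher by 0.50 ± 0.08 and 1.02 ± 0.22 (limma adjusted p at most 0.018). Of 24 enzymes that modify tubulin or cut microtubules, 5 were measured, with 3 lower and 1 higher at the first site and 2 and 1 at site 2. Spast, the severing enzyme spastin, was lower by -1.79 ± 0.09 and -1.91 ± 0.15 (SE), and Sirt2, a tubulin deacetylase, was higher by 0.33 ± 0.09 and 0.74 ± 0.14 (limma adjusted p at most 0.0047). Ttl, the tubulin tyrosine ligase, was at or under the no-target level in both tissues at the first site, so that no fold is given although it passed there (limma adjusted p = 0.029). At site 2 only retina was at that level, and Ttl was at least 2.27-fold lower there (limma adjusted p = 0.0065).

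Kinases and phosphatase subunits that act on tau and other microtubule-associated proteins were lower in retina for 13 of 18 measured genes at the first site and for 6 at site 2. Fyn, a tyrosine kinase that phosphorylates tau, was lower by -2.52 ± 0.09 and -2.10 ± 0.17 (SE), Mapk8 (JNK1) by -1.39 ± 0.07 and -1.62 ± 0.16, the microtubule affinity regulating kinase gene Mark3 by -0.94 ± 0.07 and -0.65 ± 0.15 and Mapk10 (JNK3) by -0.81 ± 0.08 and -0.40 ± 0.14 (limma adjusted p at most 0.046). With each gene read as the mean of its probe sets, 3 of the 18 were lower at site 2. Without site 2 cortex replicate 2, 8 were lower and 1 higher. Over all probe sets, the share lower at site 2 then rose from 15.9% to 21.3% and the share higher from 16.7% to 26.6%. Motor protein genes of axonal transport were lower for 16 of 25 measured and higher for 2 at the first site, and for 7 and 2 at site 2. Without site 2 cortex replicate 2, 12 were lower there. The kinesin-2 motor gene Kif3c and Kifap3, which encodes its associated protein, differed by -1.37 ± 0.07 and -1.44 ± 0.16 and by -1.02 ± 0.09 and -0.84 ± 0.16, the dynein intermediate chain genes Dync1i1 and Dync1i2 by -1.05 ± 0.07 and -0.89 ± 0.13 and by -0.99 ± 0.11 and -1.18 ± 0.18, and the dynein regulator Nde1 by 0.65 ± 0.11 and 1.25 ± 0.16 (adjusted p at most 0.002).

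**Figure D4:**
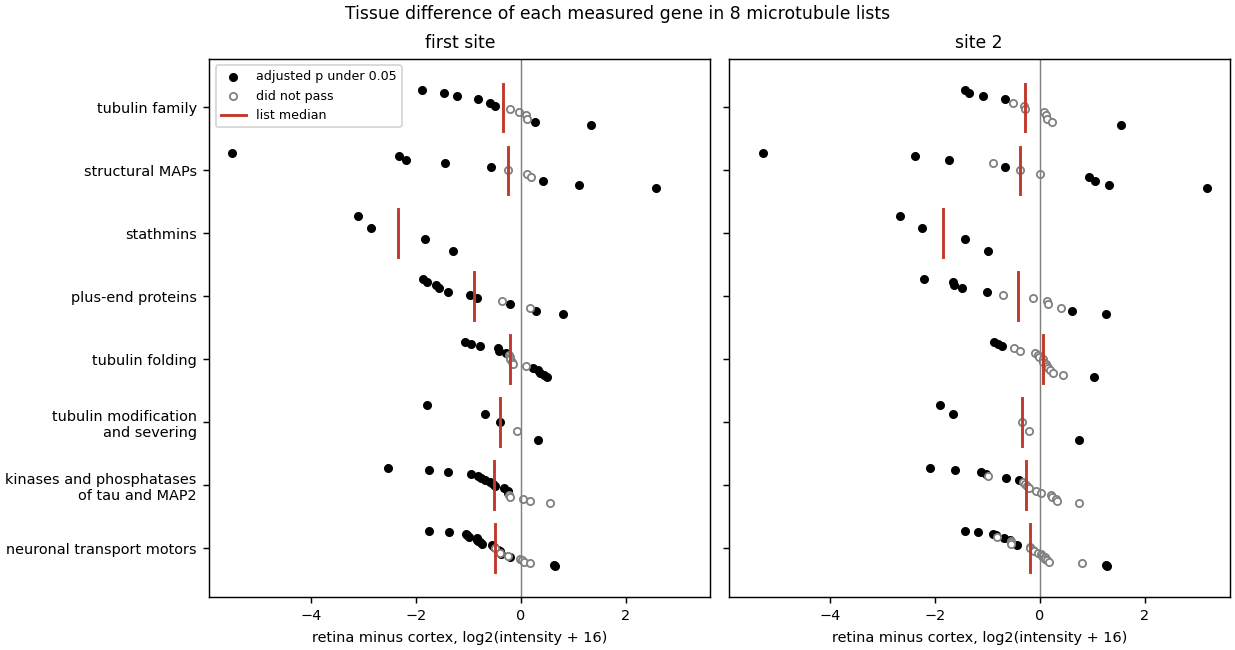
Retina minus cortex difference on the log2(intensity + 16) scale of each measured gene in 8 microtubule lists, at the first site (left) and site 2 (right); filled points passed at an adjusted p under 0.05, open points did not, and red bars mark list medians. The 4 stathmins lie below 0 at both sites, while structural microtubule-associated proteins lie on both sides.

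The genes whose profile over the 16 arrays was closest to a member were taken for the members with the largest difference in each direction. For Tuba4a (92635_at) they were Isl1 (Pearson r = 0.9923), a transcription factor of bipolar and ganglion cells, Guca1a (0.9919), a photoreceptor guanylate cyclase activator, and Hspa1a (0.9913), a heat shock protein, out of 8242 genes compared. For Tubb3 (161612_f_at) they were Gap43 (0.9962), a growth cone protein, Crmp1 (0.9959), a collapsin response mediator, and Fabp7 (0.9951), a lipid carrier made by radial glia. The 16 arrays fall into 2 tissues, so r mostly reports the step between them and describes these arrays only. The steps differed in size, with first-site differences of 1.35 for Tuba4a and 6.95 ± 0.09 for Guca1a, and of -3.35 for Tubb3 and -3.42 ± 0.10 for Gap43 (SE).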

How the data were processed

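The authors deposited intensities, linear and one per probe set per array. How they were summarised, background-corrected or scaled is not given in the sources used here. Per the labels, 10 µg of total RNA went into labelled cRNA. After 66 control probe sets were removed, log2(intensity + 16) was taken and the array median subtracted. Symbols came from the platform annotation, updated through Entrez identifiers to RefSeq (GRCm38.p6; 10817 of 10833 single-symbol probe sets found). Each site was fitted on its own, and the tissue by site interaction over all 16 arrays, with limma 3.58.1 in R 4.3.3 (lmFit, eBayes with an intensity trend, two-sided, Benjamini-Hochberg over 12422 probe sets). The procedure was tested on simulated data. The no-target level was the highest of 13 control probe sets with no added target on the same array, 8.8 to 38.3 in deposited intensity. This level, and the ratios within arrays, were chosen after the values were seen. No pair of arrays held identical values. The number of arrays limits the precision.

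The members and lists were chosen with earlier results of these data known. Named are all member probe sets; up to 4 further genes per list that passed at both sites in the same direction, by size at the first site; the gene most against its list; listed genes with an interaction past the threshold and of at least 1; and the 3 closest profiles. Other genes were named after their values were seen. Alternatives were pseudocounts of 1 and 50, scaling to a median of 100 before the pseudocount, no centring, quantile normalization, brighter probe sets only, no trend, a replicate block, all 16 arrays in one fit, and leaving out each array.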

Additional observations from a re-analysis of the deposited data

Results flagged for a closer look

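Of 32 groups of 5 arrays tested for an array far from the others, 2 held one, and chance gives about 1 in 20. For Map2, first-site cortex replicate 5 had a scaled intensity of 362, and the next array had 237. For the 94835_f_at probe set of Tubb2a, first-site cortex replicate 3 had 8755, and the next array had 10317. For the 102742_g_at probe set of Mapt, the tissue difference at site 2 minus that at the first site was 0.73 on the log2 scale.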

How the results depend on the processing

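Of 922 member values recomputed, 856 kept their side of the threshold, 42 lost it and 24 gained it, and 9 changed sign, none of them passing in either setting; the cause was not tested. Member probe sets higher in retina at the first site (2) became 1 with a pseudocount of 50, among probe sets above the median signal, with the replicate block and with all 16 arrays in one fit; those higher at site 2 (2) became 1 with a pseudocount of 50 or above the median signal. Without centring, the first site had 2062 lower probe sets in all, and site 2 had 347 higher and 434 lower, with members at 0 higher and 4 lower. Member interactions (1) became 0 with a pseudocount of 1, scaling before the pseudocount, no centring or no trend, 5 with a pseudocount of 50, and 2 above the median signal or with the replicate block. The 5 were both probe sets of Tubb3, both of Tubb5 and 102742_g_at of Mapt. All interactions with retina relatively higher at site 2 (257) became 155 with a pseudocount of 50, 13 without centring (21 lower), 135 without trend and 149 with the replicate block. Read from the mean of all probe sets, the tau kinase list had 3 lower genes at site 2. The block also moved past the threshold Map2 at site 2 (-0.90, limma adjusted p = 0.0042), Tubb4a at the first site (-0.20, 0.043) and the interaction of the 161612_f_at probe set of Tubb3 (0.64, 0.048), and ended the first-site call of the 161592_at probe set of Tuba4a (0.40, 0.069). Same-numbered arrays of the tissues did not deviate together (r between -0.19 and 0.08, the own number closest for 2 of 5 first-site pairs and 1 of 3 site 2 pairs), so the numbers were not treated as pairs.

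Leaving out 1 array gave, at the first site, 1 to 2 members higher and 11 to 12 lower (2596 to 2759 and 2969 to 3177 over all probe sets), and at site 2, 1 to 3 higher and 6 to 9 lower (1533 to 3300 and 1508 to 2646). Interactions ran from 0 to 8 among members, and from 102 to 455 higher and 109 to 239 lower over all. Without site 2 cortex replicate 2, all probe sets higher at site 2 rose to 3300 and interactions with retina relatively higher to 455, and 8 members passed the interaction, all with a smaller tissue difference at site 2, namely both probe sets of Tubb3 (0.71 and 0.85) and Tubb5 (0.81 and 0.68), 2 of Mapt (0.90 and 0.64), 94835_f_at of Tubb2a (0.66) and 100343_f_at of Tuba1a (0.78). Added after seeing the data, the lists were recounted at site 2 without it: tubulin folding had 3 higher, plus-end proteins 3 higher, tubulin modification and severing 3 lower, kinases 1 higher and 8 lower, and motors 12 lower. Over all probe sets, 26.6% were then higher and 21.3% lower, beside 16.7% and 15.9% with that array.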
